A study of Mus musculus with 5 samples.

Results

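The genes described here encode subunits of the mitochondrial respiratory chain and of ATP synthase, grouped into complexes I to V. They were taken from the arrays by symbol: every probe that maps to exactly 1 gene symbol beginning with Nduf and a letter a, b, c, s or v with a number, Uqcr, Cox4 to Cox8 or Atp5, or equal to Sdha, Sdhb, Sdhc or Sdhd. The rule found 82 probes for 73 genes, of 9669 genes with a probe of 1 symbol. Of these 73, complex I holds 32, complex II 2, complex III 8, complex IV 15 and complex V 16. Each sample was 1 array carrying spotted cDNA probes, hybridised with cDNA from total RNA of both cell lines in different dyes. The control was NIH3T3, an immortalised mouse fibroblast line, untransfected. The other line was NIH3T3 that constitutively overexpresses human HER-2/NEU (ERBB2), a receptor tyrosine kinase, from a cytomegalovirus promoter, and is called the Erbb2 line here. Both lines were grown in DMEM with fetal calf serum. The labels do not say whether the transfected line is 1 clone or whether the preparations came from separate cultures, so p-values measure only the spread between these preparations, which may be technical. There were 3 arrays of preparation A (A1, A2, A3) and 2 of preparation B (B1, B2). On A1, A2 and B1 the Erbb2 cDNA carried Cy3, and on A3 and B2 it carried Cy5.

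Oxidative phosphorylation transfers electrons from NADH, at complex I, or from succinate, at complex II, through ubiquinone to complex III, then through cytochrome c to complex IV, where oxygen is reduced. Complexes I, III and IV pump protons across the inner mitochondrial membrane, and complex V, the ATP synthase, uses the gradient to make ATP. Complexes I, III, IV and V each combine nuclear-encoded with mitochondrially encoded subunits, and many of the nuclear-encoded ones are accessory or structural. Several subunits of complexes IV and V have tissue isoforms: Cox6a2, Cox7a1 and Cox8b are the forms of heart and skeletal muscle. Proliferating fibroblasts express the widely used forms such as Cox6a1 and Cox7a2.

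All values are log2 ratios turned to the Erbb2 line over NIH3T3. The direction is likely rather than settled: the labels list Cy5 as the first channel of every array, but no source used here states that the ratio is Cy5 over Cy3. As deposited, arrays of opposite dyes correlated at -0.54 to -0.17 over all probes and arrays of the same dyes at 0.45 to 0.52, so the relative turning is visible in the values. If the ratio is Cy3 over Cy5, every sign below turns. Erbb2 had 0 probes of 1 symbol, so the transfected gene could not be checked.

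Promoter sequence is shown for 4 genes. Ndufv1 and Atp5d passed the test. Atp5g2 and Cox6a1 were picked from the 3 tested members whose promoter holds the NRF1 core described below. Its presence in them was therefore fixed by the choice. Ndufa6, the other of these members, is not shown. Atp5g2 narrowly missed the test, and Cox6a1 had the largest dye effect of the tested members. Cox6a2, which also passed, had no matched promoter. RefSeq promoters (GRCm38.p6, 250 bases before to 50 bases after the start of transcription) were matched for 60 of the 73 genes. They were searched on both strands for the core of the NRF1 site, GCGCATGC, and for the core of the ETS site bound by GABP, CCGGAAG. NRF1 and GABP are transcription factors long known to act on genes of the respiratory chain. Capitals mark matches. The windows, in the order shown, are chr19:4012706-4013005 on the minus strand, chr10:80142025-80142324 on the plus strand, chr15:102670998-102671297 on the minus strand and chr5:115348909-115349208 on the minus strand. Each is written 5′ to 3′ along its gene.
Ndufv1: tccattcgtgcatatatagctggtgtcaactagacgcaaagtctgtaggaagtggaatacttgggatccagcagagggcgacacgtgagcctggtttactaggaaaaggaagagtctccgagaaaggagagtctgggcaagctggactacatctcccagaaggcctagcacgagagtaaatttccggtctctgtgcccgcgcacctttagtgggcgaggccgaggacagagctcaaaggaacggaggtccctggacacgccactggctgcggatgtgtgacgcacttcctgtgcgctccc
Atp5d: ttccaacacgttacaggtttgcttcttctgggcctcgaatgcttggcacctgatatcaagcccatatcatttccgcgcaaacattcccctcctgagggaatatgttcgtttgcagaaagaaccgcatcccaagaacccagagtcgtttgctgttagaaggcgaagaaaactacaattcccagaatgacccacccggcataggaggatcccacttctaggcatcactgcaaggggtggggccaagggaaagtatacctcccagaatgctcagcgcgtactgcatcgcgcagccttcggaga
Atp5g2: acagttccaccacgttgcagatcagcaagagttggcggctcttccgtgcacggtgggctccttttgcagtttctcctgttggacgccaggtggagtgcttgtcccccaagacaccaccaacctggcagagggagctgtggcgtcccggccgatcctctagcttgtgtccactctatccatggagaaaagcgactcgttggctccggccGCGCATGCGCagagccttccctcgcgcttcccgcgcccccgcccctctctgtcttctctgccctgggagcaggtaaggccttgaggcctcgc
Cox6a1: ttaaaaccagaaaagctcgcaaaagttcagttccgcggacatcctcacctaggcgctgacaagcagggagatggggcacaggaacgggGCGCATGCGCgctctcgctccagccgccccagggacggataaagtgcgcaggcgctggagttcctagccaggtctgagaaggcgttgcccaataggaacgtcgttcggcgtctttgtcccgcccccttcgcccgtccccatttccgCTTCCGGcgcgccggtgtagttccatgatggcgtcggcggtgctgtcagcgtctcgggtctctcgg

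Neither motif was found in the windows of Ndufv1 or of Atp5d, whose other start, at chr10:80142065-80142364, also held 0 matches. The NRF1 core for which Atp5g2 was picked lay on both strands at overlapping positions, which gives a run of 10 capitals. Cox6a1 held the same overlapping pair and, nearer its start, 1 ETS core on the opposite strand. Among the 65 promoters of the 60 matched genes, 15.4% held the NRF1 core and 21.5% the ETS core, against 2.71% and 8.86% of all 32851 promoters in the table. By complex, either motif was found in 5 of 28 matched genes of complex I, 2 of 2 of complex II, 3 of 5 of complex III, 3 of 11 of complex IV and 6 of 14 of complex V. The 8 tested members with either motif had a median log2 ratio of -0.34 and the 26 without a median of -0.07, both given as descriptions. A match is a match of letters and not a binding site, and no match says only that these letters are not in this window.

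Of the 73 genes, 72 had a value on at least 1 array (Cox8c, a testis form of a complex IV subunit, had none) and 36 had one on all 5. The main test needed a value in both dye orientations of both preparations. It could be made for 41 members: 20 of complex I, 0 of complex II, 3 of complex III, 9 of complex IV and 9 of complex V. That is 56.2% of the members, against 32.4% of the 9669 genes. A further 31 members were measured but not tested, and their values stand below without a test. Members with a value on each array ranged from 49 (A3) to 67 (B1) of the 73. The lines were called fibroblasts by the labels. Of 9 fibroblast markers with a value, 6 were tested and 2 passed, both lower in the Erbb2 line. These were the collagen genes Col1a1 at -4.93 ± 0.75 (SD, n = 2 preparations) and Col1a2 at -3.97 ± 0.14. The other 4 tested did not pass: Vim, the vimentin gene, at 0.47, Col3a1, another collagen gene, at 0.51, S100a4 at -0.01 and Fap at -0.60. The ratios do not show how strongly either line expresses a marker.

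The members' ratios differed between arrays, including a pair that shared both preparation and dyes. The median over members was 0.16 on A1, -0.50 on A2, 0.12 on A3, -0.44 on B1 and 0.03 on B2, while the median over all features was within 0.01 of 0 on every array. On A2, 46 of 64 members were below 0, and on B1 50 of 67. The share of members below -1 was 29.7% on A2, against 6.26% of all features on that array. A1 and A2 carried the same preparation in the same dyes, yet across the 56 members measured on both the Pearson correlation was -0.01 (Spearman -0.06), against 0.47 (0.39) across 4884 features. The members lay higher on A1 by a median of 0.51, where all features lay lower by a median of 0.12, and 17 of the 56 (30.4%) were higher on A1 by more than 1, against 8.09% of features. A2 and B1, which share the dye orientation but not the preparation, correlated at 0.56 across 60 members, against 0.51 across 9721 features. A1 and B1, which also share only the dye orientation, correlated at 0.21 across 53 members, against 0.43 across 4732 features. These are correlations across genes on arrays that share a preparation or dye orientation, and genes are not independent replicates. Spot intensities were not used here.

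**Figure D1:**
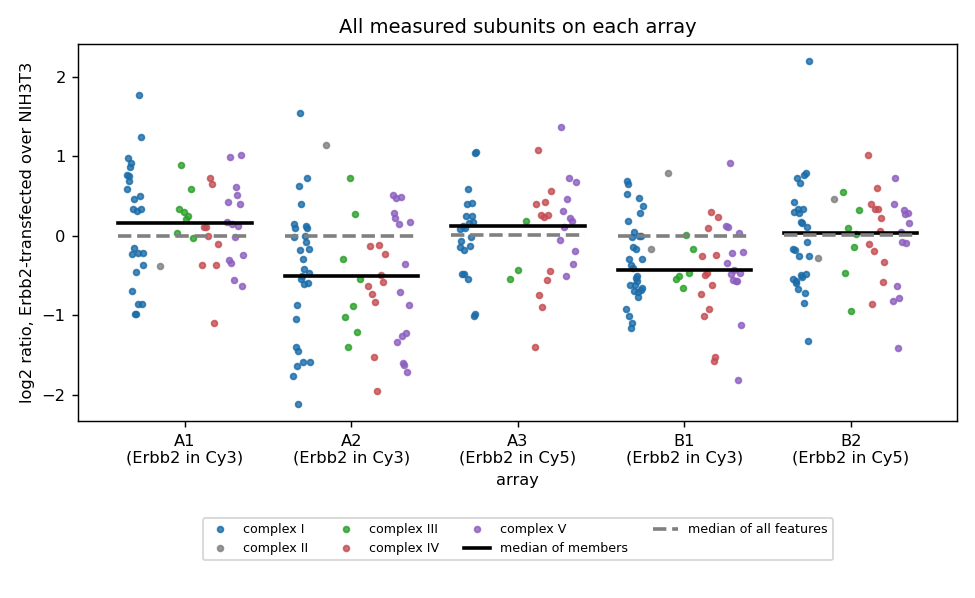
Log2 ratio (Erbb2 line over NIH3T3) of every measured subunit on each of the 5 arrays, coloured by complex. Solid lines are the medians of the members, at -0.50 on A2 and -0.44 on B1, and dashed lines are the medians of all features, close to 0 on each array.

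The disagreement between A1 and A2 lay mostly outside the core subunits, a grouping compared after the values had been seen. The 11 core subunits (those that carry redox centres, form the main bodies of complexes III and V or are the largest nuclear-encoded subunits of complex IV) with a value on both arrays correlated at 0.56, with a median difference of 0.10 and 1 difference above 1. The other 45 members correlated at -0.02, with a median difference of 0.75 and 16 differences above 1. The largest were Atp5mpl, a small membrane subunit of ATP synthase, with 1.01 on A1 and -1.72 on A2, and Cox6c, an accessory subunit of complex IV, with 0.73 and -1.95. Ndufa5, an accessory subunit of complex I, stood at 0.91 and -1.65. The same was seen outside the respiratory chain: 41 cytosolic ribosomal protein genes correlated at -0.41 between A1 and A2, while 34 mitochondrial ribosomal protein genes correlated at 0.42 and 26 proteasome genes at 0.51. These sets were chosen after the values were seen and were not tested against each other. Across other array pairs the core subunits did not always correlate. On pairs without B2 their correlation ran from 0.42 (A2 and B1) to 0.84 (A3 and B1). With B2 it was -0.01 for A1, -0.28 for A2, -0.17 for A3 and -0.21 for B1, over 8 to 11 genes.

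**Figure D2:**
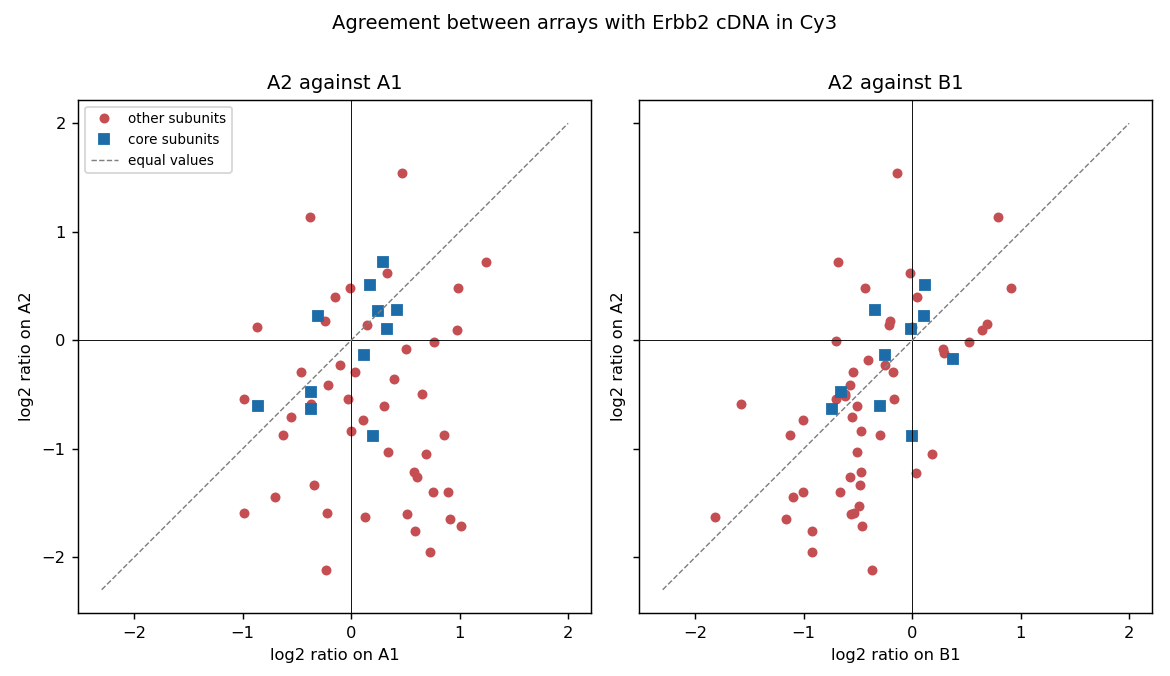
Log2 ratios of the members on A2 against A1 (left; same preparation and same dyes, 56 members) and on A2 against B1 (right; other preparation, same dyes, 60 members), with core subunits as squares and equal values as the dashed line. Some of the other subunits lie above 0 on A1 and below -1 on A2. The left panel has a correlation of -0.01, against 0.47 over all features, and the right panel 0.56, against 0.51. A1 and B1, not drawn here, also share their dye orientation, and the members correlate at 0.21.

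The main comparison asked which subunits differed between the lines. The test was limma's moderated test of the 2 preparation means against 0, each the average of its 2 dye orientations, with Benjamini-Hochberg adjustment over 4892 features. Among the 41 tested members 3 passed at an adjusted p under 0.05: 1 was higher in the Erbb2 line (Atp5d) and 2 were lower (Ndufv1 and Cox6a2). Of all 4892 features 6.79% passed, 2.25% higher and 4.54% lower, so the members' share is near the background. With arrays scaled to equal spread over all features, 21.4% of the features that passed were higher, against 33.1% in the main test. At an unadjusted p under 0.05, 10 members passed, against 22.9% of features. The spread estimate had 1 residual and 10.2 prior degrees of freedom, so it was set mainly by all features together, and the members' standard errors (SE) were alike, from 0.203 to 0.260.

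As a whole the tested members had a median log2 ratio of -0.17, and 27 of 41 were below 0, which is 65.9% against 52.0% of all features, whose median was -0.02. The members' median was -0.06 without B1, -0.10 without A2, -0.29 without B2 and -0.07 without A1 and A2. In 19 members both preparations were below 0 (background 34.5%) and in 7 both were above 0 (background 30.9%). The ratio had 1 sign on every array with a value in 8 members (background 24.3%). Of these, 6 were below 0, namely Ndufv1, Ndufa6, Ndufs8, Cox6a2, Cox8a and Atp5g2, and 2 were above 0, Ndufa12 and Atp5d. The median by preparation was -0.11 in A and -0.22 in B. By array it was below -0.4 on A2 and B1 and above 0 on A1, A3 and B2, as given above, and the part of the array differences in these medians was not tested.

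**Figure D3:**
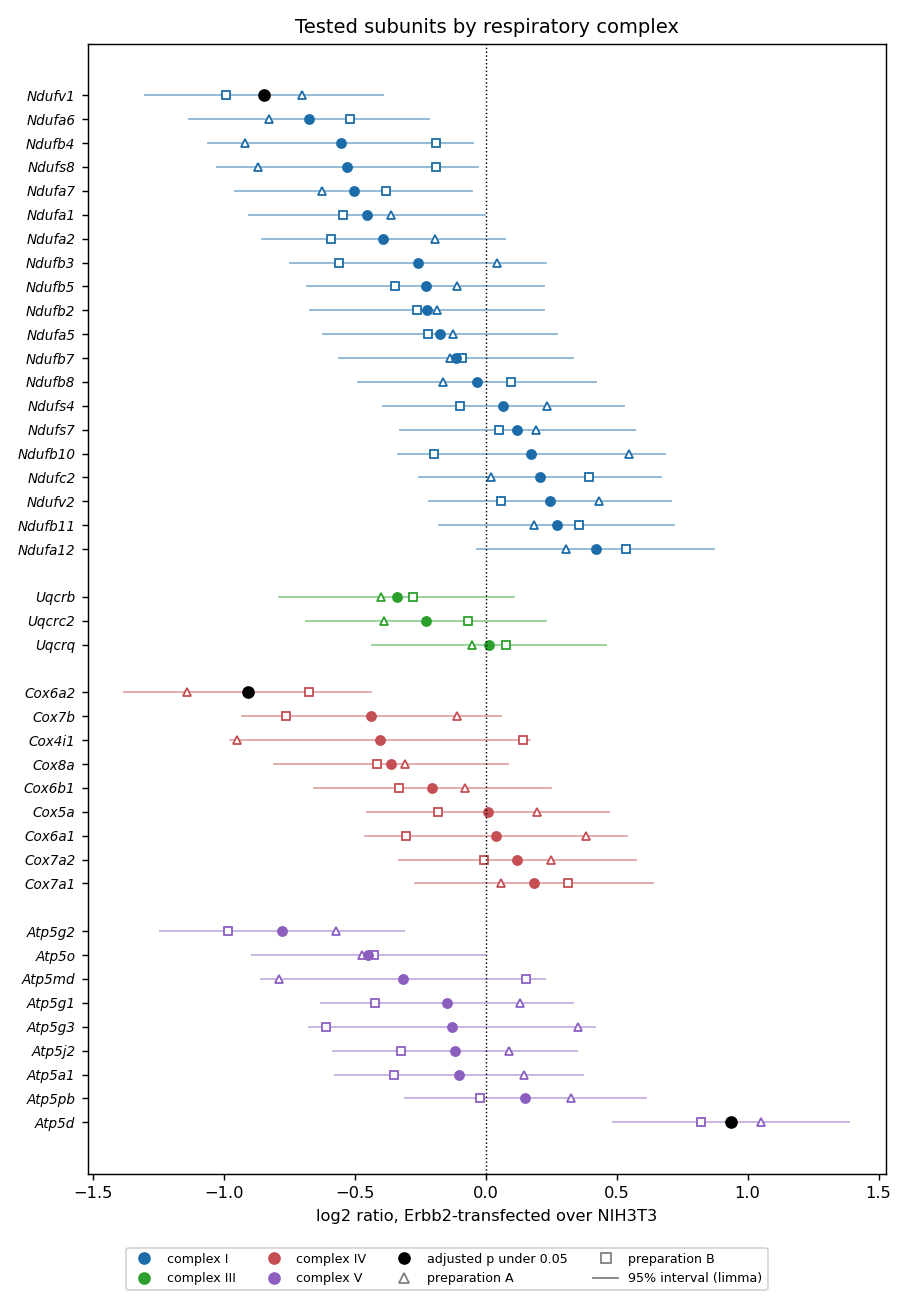
Mean log2 ratio (Erbb2 line over NIH3T3) of the 41 tested subunits by complex, with the 95% interval from limma (line) and the means of preparations A (triangle) and B (square). Black points mark the 3 genes with an adjusted p under 0.05: Ndufv1 at -0.85, Cox6a2 at -0.91 and Atp5d at 0.94.

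Complex I oxidises NADH and passes the electrons along a chain of iron-sulphur clusters to ubiquinone. Of its 20 tested subunits 1 passed the test and was lower, against 4.54% of all features. A mean below 0 was found in 13, against 52.0% of all features. The complex had a median of -0.20, with -0.13 in preparation A and -0.19 in B. It was -0.0063 without B1, -0.065 without A2, -0.35 without B2 and -0.053 without A1 and A2. Ndufv1 encodes the subunit that binds NADH and the flavin, where electrons enter. Its ratio was -0.37 on A1, -0.47 on A2, -0.98 on A3, -0.65 on B1 and -1.33 on B2. All 5 arrays were below 0, and the arrays with Erbb2 in Cy5 (A3 and B2) were the lowest. The mean was -0.85 ± 0.21 (SD, n = 2 preparations), or 1.80-fold lower, with an adjusted p of 0.0337 by limma. The gene did not pass without A3 (mean -0.71, adjusted p 0.240), without B1 (-1.02, 0.0640), without B2 (-0.68, 0.131) or without A1 and A2 (-0.99, 0.123). Leaving out A3, B1 or B2 leaves 1 preparation with a single dye orientation.

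The other tested redox subunits of complex I, Ndufv2, Ndufs7 and Ndufs8, had means nearer 0, and their difference from Ndufv1 was not tested. Ndufv2, the partner of Ndufv1 in the NADH-oxidising module, had no value on A1 and stood at -0.17 on A2, 1.04 on A3, 0.38 on B1 and -0.26 on B2. Its signs were mixed, with a mean of 0.25 and a 95% interval of -0.22 to 0.71. Ndufs7 and Ndufs8 carry the last iron-sulphur clusters before ubiquinone. Ndufs7 lay close to 0 on all arrays (0.33, 0.10, 0.17, -0.01 and 0.11 on A1, A2, A3, B1 and B2), with a mean of 0.12. Ndufs8 was below 0 on all 5 (-0.86, -0.60, -1.01, -0.30 and -0.08), with a mean of -0.53 and a 95% interval of -1.03 to -0.03 that is not adjusted for the number of tests. All 3 arrays of preparation A were lower than both arrays of B. Ndufs1, the largest iron-sulphur subunit, was measured on A1 (1.77) and B1 (0.48) only and was not tested.

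Among the accessory subunits of complex I, the lowest mean after Ndufv1 was that of Ndufa6, at -0.67 ± 0.22 (SD, n = 2), with an adjusted p of 0.0812. It was -0.23 on A1, -2.12 on A2, -0.48 on A3, -0.37 on B1 and -0.67 on B2. The value on A2 stood apart, and without A2 the mean was -0.44 (adjusted p 0.264). The highest mean of the complex was that of Ndufa12, an accessory subunit of the arm that faces the matrix, at 0.42. Its ratio was 0.97, 0.09, 0.08, 0.65 and 0.42 on A1, A2, A3, B1 and B2, above 0 on all 5, and did not pass. The other 14 tested accessory subunits ranged from -0.55 (Ndufb4) to 0.27 (Ndufb11). Of the 12 untested subunits the widest range was that of Ndufv3, a small accessory subunit, with -0.22 on A1, -1.59 on A2, 1.06 on A3 and 2.20 on B2. Its low values were on arrays with Erbb2 in Cy3 and its high ones on arrays with Erbb2 in Cy5. Ndufa4l2, counted here by its symbol although its paralog Ndufa4 is now placed in complex IV, was at -0.49 on A3, -0.62 on B1 and -0.60 on B2.

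Complex II, succinate dehydrogenase, also belongs to the tricarboxylic acid cycle. It had 2 measured members and no test. Sdhb, the iron-sulphur subunit, was at -0.17 on B1 and -0.28 on B2. Sdhd, a membrane anchor, was at -0.38 on A1, 1.14 on A2, 0.79 on B1 and 0.46 on B2. A1 alone was below 0 for Sdhd, and it differed from A2 of the same preparation and dyes by more than it differed from either array of B.

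Complex III passes electrons from ubiquinol to cytochrome c. None of its 3 tested subunits passed, the median was -0.23, and 2 means were below 0, against 52.0% of all features. The median was -0.053 without A2, -0.15 without B1 and -0.36 without A1. The lowest was Uqcrb, an accessory subunit near the ubiquinone site, at -0.34 ± 0.09 (SD, n = 2 preparations). The 2 preparations were close, but the arrays behind them were not: Uqcrb stood at 0.90 on A1, -1.40 on A2, -0.55 on A3, -0.66 on B1 and 0.10 on B2. Its mean was -0.053 without A2, -0.15 without B1, -0.53 without B2 and -0.63 without A1. The highest was Uqcrq, a small membrane subunit, at 0.01. It had 2 probes, which were at -0.56 and 0.50 on A1 and so disagreed in sign. Uqcrc2, a large core protein of the matrix side, was at 0.20, -0.88, -0.44, 0.00 and -0.14 on A1, A2, A3, B1 and B2, with a mean of -0.23. Uqcrfs1, the Rieske iron-sulphur protein, was not tested and was above 0 on the 3 arrays that measured it (0.25 on A1, 0.27 on A2 and 0.02 on B2). Uqcrc1, the other core protein, was at 0.30 on A1, 0.72 on A2 and -0.95 on B2.

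Complex IV, cytochrome c oxidase, reduces oxygen, and its catalytic subunits are mitochondrially encoded, so all its members here are nuclear-encoded subunits around that centre. Of 9 tested, 1 passed and was lower (Cox6a2), against 4.54% of all features, and 5 had a mean below 0, against 52.0%. The median was -0.20, with -0.08 in preparation A and -0.31 in B. This median was 0.0042 without B1, -0.10 without A2, -0.31 without A1 and 0.039 without A1 and A2. Cox4i1, the largest nuclear-encoded subunit, was at -0.37 on A1, -0.63 on A2, -1.40 on A3, -0.74 on B1 and 1.02 on B2. B2 was the only array above 0. The gene had 2 probes, and the value on A3 came from 1 of them alone while those on A1, B1 and B2 came from the other alone, so the preparation means of -0.95 and 0.14 set different probes against each other. Neither probe could be tested by itself, and with each probe as a feature the median of the complex was -0.098. Cox5a was near 0 throughout, from -0.25 (B1) to 0.40 (A3), with a mean of 0.01 and a 95% interval of -0.45 to 0.47.

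The isoform pairs of complex IV are given side by side. Cox6a2, the heart and muscle form of a subunit that touches the dimer interface, had no value on A1 and stood at -1.53 on A2, -0.75 on A3, -0.49 on B1 and -0.86 on B2. All 4 values were below 0. The mean was -0.91 ± 0.33 (SD, n = 2 preparations), or 1.88-fold lower, with an adjusted p of 0.0284 by limma. It did not pass without A3 (mean -1.10, adjusted p 0.0572), without B1 (-0.999, 0.0705), without B2 (-0.82, 0.0934) or without A1 and A2 (-0.71, 0.212). Its widely expressed partner Cox6a1 was at 0.11, -0.74, 1.08, -1.01 and 0.39 on A1, A2, A3, B1 and B2, with a mean of 0.04. Both arrays with Erbb2 in Cy5 were above all 3 with Erbb2 in Cy3. The difference between the 2 genes was not tested. Muscle markers gave little to set beside Cox6a2: 7 of 11 had a value on some array and 1 was tested, Tnnt3, a fast skeletal troponin, at 0.21, not passing. Their values ranged from -0.80 (Myh1, on B1 only) to 0.56 (Ckm on A2), and their part in the Cox6a2 result was not tested.

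The other muscle form with a test, Cox7a1, had the highest mean of complex IV, at 0.19, with -0.12 on A2, 0.23 on A3, 0.30 on B1 and 0.33 on B2. Its widely expressed partner Cox7a2 was at 0.65, -0.49, 0.42, -0.62 and 0.61 on A1, A2, A3, B1 and B2, with a mean of 0.12. The muscle form Cox8b was untested, with 0.57 on A3, 0.23 on B1 and -0.33 on B2. Cox8a, the widely expressed form, was below 0 on all 5 arrays, from -0.58 (B2) to -0.10 (A1), with a mean of -0.36 that did not pass. Cox6b1 had a mean of -0.20 and ranged from -0.83 (A2) to 0.26 (A3). Its testis partner Cox6b2 was measured on A3 (-0.89) and B1 (0.09) only. Cox7b had a mean of -0.44, with its lowest value on B1 (-1.58), and its testis partner Cox7b2 was likewise low on B1 (-1.52) and at 0.22 on B2. Cox7a2l, a relative of Cox7a2 that takes part in joining complexes III and IV into supercomplexes, was at -1.11 on A1, -0.55 on A3 and 0.33 on B2. How far probes of related isoforms bind each other's cDNA was not tested.

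Complex V makes ATP by rotation of a central stalk and a ring of c subunits. Of its 9 tested members 1 passed and was higher (Atp5d), against 2.25% of all features. A mean below 0 was found in 7, against 52.0% of all features, and the median was -0.13. Its preparations lay on opposite sides of 0, with medians of 0.13 in A and -0.35 in B. The median of the complex was -0.24 without A3 and also without B2. Atp5d encodes the delta subunit at the foot of the central stalk. It was at 0.98 on A1, 0.48 on A2, 1.37 on A3, 0.91 on B1 and 0.73 on B2, above 0 on all 5 arrays. The mean was 0.94 ± 0.16 (SD, n = 2 preparations), or 1.91-fold higher, with an adjusted p of 0.0200 by limma. The adjusted p was 0.169 without A3, 0.127 without B1 and 0.115 without A1 and A2, with means of 0.78, 0.89 and 1.10. Atp5e, which sits beside the delta subunit in the same stalk, was untested, with -0.34 on A1, -1.33 on A2, 0.32 on A3 and -0.48 on B1. Atp5c1, the gamma subunit and axle of the stalk, was also untested, with -0.30 on A1, 0.22 on A2 and 0.11 on B1.

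In the catalytic head of complex V only the alpha subunit could be tested, and it did not pass. Atp5a1, the alpha subunit, was at 0.17, 0.51, -0.05, 0.12 and -0.82 on A1, A2, A3, B1 and B2, with a mean of -0.10 and a 95% interval of -0.58 to 0.37. B2 stood below the other 4 arrays. Atp5b, the beta subunit that holds the catalytic sites, was untested, at 0.42 on A1, 0.28 on A2, -0.34 on B1 and 0.40 on B2. The c subunits of the ring are encoded by Atp5g1, Atp5g2 and Atp5g3, whose mature proteins are the same and whose targeting peptides differ. Atp5g2 had the lowest mean of the complex, at -0.78 ± 0.29 (SD, n = 2 preparations), with an adjusted p of 0.0518. It was at -0.56, -0.71, -0.51, -0.56 and -1.41 on A1, A2, A3, B1 and B2, below 0 on all arrays and lowest on B2. Without B2 the mean was -0.57 (adjusted p 0.211). Atp5g1 was at 0.14, 0.14, 0.11, -0.22 and -0.63, with a mean of -0.15, and Atp5g3 was at -0.02, 0.48, 0.47, -0.44 and -0.78, with a mean of -0.13. For both, every array of preparation A was above every array of B. Outside the ring, the means of the other tested members ran from -0.45 (Atp5o, the stalk protein that confers oligomycin sensitivity) to 0.15 (Atp5pb, of the peripheral stalk). Atp5o had 2 probes, which disagreed in sign on A3 (0.09 and -0.48) and B2 (0.71 and -0.15). Both were below 0 on A1, A2 and B1. With each probe as a feature, the lower of their 2 adjusted p-values was 0.0424 by limma.

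**Figure D4:**
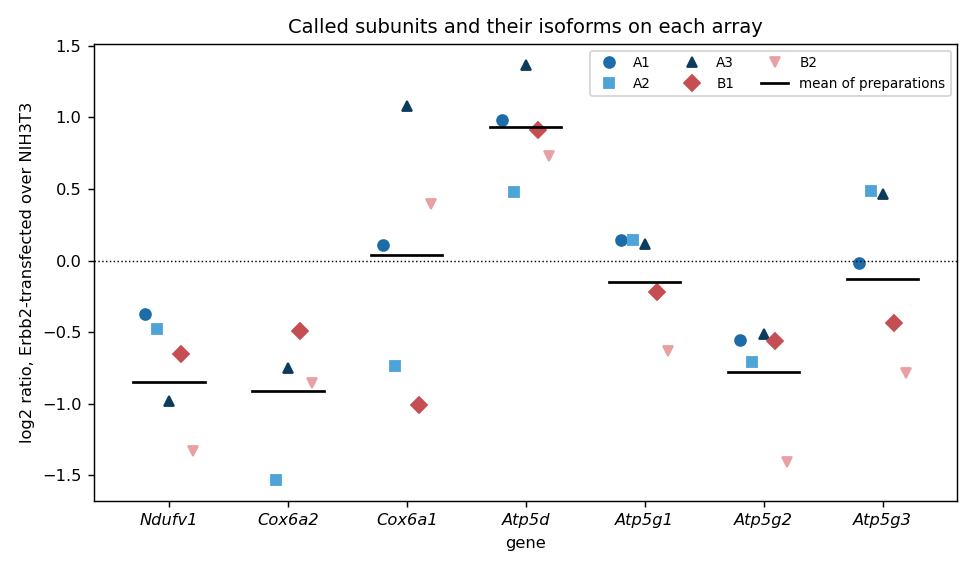
Log2 ratio (Erbb2 line over NIH3T3) on each array of the 3 genes that passed the test and of their isoforms or, for Atp5d, of the c-subunit genes of the same complex, with bars at the mean of the preparations. Ndufv1 and Cox6a2 are below 0 and Atp5d above 0 on every array with a value, while Cox6a1 runs from -1.01 to 1.08.

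Whether the dye or the preparation moved the members was tested in a limma fit of the 5 arrays with terms for the line, the dye and the preparation. The dye term is how far arrays with Erbb2 in Cy5 lie above, and arrays with Erbb2 in Cy3 below, the line's effect. No member passed at an adjusted p under 0.05, against 0.593% of features, and 5 had an unadjusted p under 0.05, against 13.2% of features. These were Cox6a1 at 0.70 (adjusted p 0.143), Ndufa7 and Cox7b at 0.56, Ndufb2 at 0.52 and Atp5o at 0.46, all higher with Erbb2 in Cy5. Without A1, 4 of 41 members passed the dye test, Cox6a1, Ndufa5, Ndufa7 and Atp5j2, against 5.28% of features in the same fit. Atp5j2 had 2 probes, and in that fit A2 averaged both, B1 came from 1 and A3 and B2 from the other. Between the preparations no member passed, against 0.0204% of features, and 2 had an unadjusted p under 0.05, against 6.75% of features. Both were of complex V: Atp5g3 was higher in A by 0.92 and Atp5md, a small membrane subunit, differed by -0.94, with adjusted p of 0.686 and 0.696.

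Genes that serve the same pathway were taken from 6 lists. Among factors that assemble the complexes, 10 of 48 could be tested and 1 passed, against 6.79% of all features. This was Surf1, an assembly factor of complex IV, which was lower. It was at -0.79 on A2, -0.75 on A3, -0.09 on B1 and -2.46 on B2. The mean was -1.02 ± 0.35 (SD, n = 2 preparations; adjusted p 0.0171 by limma), and the range on preparation B was wide: without B2 the mean was -0.43 and the adjusted p 0.401, without A3 the adjusted p was 0.0614, and without A1 and A2 0.131. The list's median was -0.23. Another list held genes of the tricarboxylic acid cycle and pyruvate dehydrogenase, which supply NADH and succinate. Here 7 of 25 were tested and 1 passed, against 6.79% of all features. This was Pdha1, the catalytic subunit of pyruvate dehydrogenase, which was lower. It was at -0.30 on A2, -2.52 on A3, -0.68 on B1 and -1.24 on B2, all below 0. The mean was -1.18 ± 0.32 (SD, n = 2 preparations; adjusted p 0.00791 by limma), -0.63 without A3 (adjusted p 0.313) and -1.74 without A1 and A2 (adjusted p 0.0941). The list had 6 of 7 means below 0, against 52.0% of all features, and a median of -0.52.

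In the other 4 lists no gene passed. They were cytochrome c and ubiquinone synthesis (4 of 20 tested, median 0.03), the ADP and phosphate carriers and porins that feed ATP synthase (5 of 12, median 0.19), regulators of mitochondrial biogenesis and the mitochondrial genome (8 of 23, median -0.18), and subunits whose symbols lie outside the rule (1 of 19, Ndufab1 at -0.24). Cycs, the cytochrome c that links complexes III and IV, had a mean of 0.06 with mixed signs. Ppargc1a, a coactivator of mitochondrial genes, was below 0 on all 5 arrays, from -0.89 (A1) to -0.22 (A3), with a mean of -0.52 (adjusted p 0.156). Polg, the mitochondrial DNA polymerase, was below 0 on its 4 arrays, with a mean of -0.54. Vdac2, a porin of the outer membrane, was below 0 on all 5 with a mean of -0.38, and Ckmt1, a mitochondrial creatine kinase, was above 0 on its 4 arrays with a mean of 0.31. For Coq10b, which handles ubiquinone, the mean was 0.23 with 1 array below 0.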

How the data were processed

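Relative mRNA levels were measured on 5 two-colour arrays of spotted cDNA probes. Per the labels, the authors scanned with GenePix, subtracted background from mean intensities and scaled the median ratio to 1. The deposited values are log2 ratios: after subtracting each array's offset, 58.8% of those on A2 are log2 quotients of integers no larger than 300 (tolerance 1e-06), against 3.53% for natural logs and 6.15% for log10, and the lowest log2 share is 18.7%, on B1. The labels do not say why values are empty, and the number of arrays limits the precision.

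Of 20205 probes, 11723 have 1 symbol, 806 several and 7676 are not listed in the platform annotation. Probes of a symbol were averaged, which gave 18151 features. Arrays with Erbb2 in Cy3 were sign-turned, and orientations were averaged within a preparation. The preparation means were tested against 0 with limma 3.58.1 in R 4.3.3. Tested features had a value in both dye orientations of A and in both of B. The threshold was an adjusted p under 0.05 (Benjamini-Hochberg). Dye and preparation terms were fitted over the 5 arrays, where arrays without a value drop out of that feature's fit. The fits were tried on simulated data with known changes, with the spread taken from the fit or from the SD over the arrays. A minimum share of recovered changes was required only with the spread of the fit. That choice followed a first run in which the SD over the arrays recovered fewer. Motifs were counted in Python 3.11.15, and figures drawn with matplotlib 3.10.9.

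Genes are named where they passed a test, have the highest or lowest mean of a complex, or belong to the lists of core subunits and isoforms; of other lists, those that passed or otherwise up to 2 of large mean and 1 sign. Others named for their values were chosen after these were seen. The members and lists were chosen with earlier results of these data known. Alternatives changed the unit of replication, centring, scaling, normalization, filter, probe summary, variance estimate and threshold, and left out each array.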

Additional observations from a re-analysis of the deposited data

Results flagged for a closer look

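In 3 of the 55 members with 4 or 5 values, 1 array stood apart from the others by Dixon's criterion, taken over both preparations. That is 5.45%, and chance gives about 1 in 20. Ndufa6, an accessory subunit of complex I, was at -2.12 on A2, with the other arrays between -0.67 and -0.23. Ndufb3, another accessory subunit of complex I, was at 0.59 on A3, with the others between -0.62 and -0.50. Atp5g2, a c-subunit gene of ATP synthase, was at -1.41 on B2, with the others between -0.71 and -0.51.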

How the results depend on the processing

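In the main test 3 of 41 members and 6.79% of 4892 features (332) passed. Plain means of the arrays of each preparation gave 5 members, against 8.46% of features. With each probe as a feature, 6 of 39 members passed, against 10.8% of features (544). Probes measured in both orientations of both preparations gave 5 of 39 members, against 11.8% of features (564). At an adjusted p under 0.10, 5 members passed, against 11.2% of features (548). With any value in both preparations allowed, 0 of 69 members passed, against 1.44% of 11817 features (170). With arrays scaled to equal spread over all features, 0 of 41 members passed, against 2.29% of features (112). After that result was seen, scaling over the tested features was added, and gave 1 member, Atp5d, against 4.01% of features (196). A random block for the preparation gave 509 features (10.4%). Leaving out 1 array gave 0 (without A3) to 6 members (without A1) and 198 to 498 features. Without B1 the 1 member that passed was Ndufv3, which lacked a value for the main test. Leaving out A1 and A2, also chosen after seeing the data, gave 0 members and 60 features. Without A3, B1 or B2, 1 preparation has a single dye orientation. The share of higher among all features that passed was 33.1%, and ranged from 11.7% without A1 and A2 (19.4% without B1, 21.4% with scaling over all features) to 42.9% without B2.

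Ndufv1 passed in 11 of 18 alternatives, Cox6a2 in 9 of 16 and Atp5d in 13 of 18, each with its sign kept in all of them. Atp5g2 and Ndufa6, which did not pass the main test, passed in 8 of 18 and 4 of 18 alternatives. The median of complex I was -0.26 with quantile normalization, -0.11 with any value allowed, -0.053 without A1 and A2, and -0.35 to -0.0063 when 1 array was left out. That of complex IV was 0.039 without A1 and A2 and ran from -0.31 to 0.0042 when 1 array was left out. Dye effects were called in 0 to 4 members when 1 array was left out. The 4 were of 41 members tested without A1, against 5.28% of features in that fit. With the repetition number as a replicate block, without the dye term, 0 members and 1 of 2872 features differed between preparations, as without it. Both preparations have only repetitions 1 and 2 in common, and the numbers do not mark shared material.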
